A study of Homo sapiens with 12 samples.

Results

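The genes described here are 9 enzymes that make the building blocks of DNA and RNA: RRM1, RRM2, TYMS, TK1, CAD, UMPS, CTPS1, PPAT and PAICS. They were taken by symbol from the array's platform annotation and are 9 of 19775 genes that a probe set of the array names alone. They were read by 22 of 41091 such probe sets, and 18 of those 22 had a mean level above the filter on dim probe sets, the 40th percentile (5.46 log2). Every one of the 9 genes kept at least 1 probe set.

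RNA came from MDA-MB-231, an established human breast cancer cell line without oestrogen receptor, and all values describe that 1 line. Cells were plated sparsely and transfected on day 2 with small interfering RNA (siRNA) at 33 nM, received fresh medium on day 3 and were harvested on day 4. The control group received a control siRNA, and the knockdown groups received YAP/TAZ siRNA mix #1 or mix #2, each directed at both YAP and TAZ. Each of these 3 groups had 4 biological replicates, A to D, which were handled side by side, so that 12 arrays were compared. YAP and TAZ are related coactivators of transcription that the Hippo kinase pathway restrains, and the series asks what their loss changes in this line.

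Cells obtain nucleotides by building them from amino acids, bicarbonate and ribose phosphate (the de novo routes) or by salvaging bases and nucleosides. The purine route builds its ring on ribose phosphate, whereas the pyrimidine route builds the ring before the sugar phosphate is attached. Ribonucleotide reductase then turns ribonucleotides into deoxyribonucleotides, and several of these enzymes are made mainly in dividing cells.

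A level is the deposited log2 value of the gene's brightest probe set (highest mean over the 12 arrays), so that a difference of -1 is a halving. Levels of different genes are not compared, since probe sets differ in their response. Array medians lay between 5.69 and 5.78. Across the brightest probe sets of the 13225 genes tested, replicate arrays correlated at 0.993 to 0.998. The median difference of these genes was 0.005 with mix 1 and 0.03 with mix 2. The targeted genes were lower in both groups, YAP1 by -3.01 with mix 1 and -3.07 with mix 2, and WWTR1 (TAZ) by -2.34 and -2.45. The line's own markers VIM, CD44 and KRT18 had control means of 14.29, 12.22 and 12.88, while SPARC, listed with them, was below the filter at 4.33; Of 4 genes listed as low in this line, CDH1 and PGR were below it at 3.98 and 3.56, while ESR1 (the oestrogen receptor gene) and ERBB2 were above it at 6.31 and 7.76.

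All 9 enzymes fell under both mixes. With mix 1 the 9 log2 differences ran from -2.52 (TYMS) to -1.24 (TK1), with a median of -2.14. With mix 2 they ran from -3.22 (RRM2) to -1.36 (TK1), with a median of -1.70. A fall past the threshold (limma, Benjamini-Hochberg adjusted p of at most 0.05) was common on these arrays, so that the count of 9 of 9 is to be read against 32.3% of all genes lower with mix 1 and 31.9% lower with mix 2. No member rose, where 34.8% and 36.7% of all genes did. Falls of the size seen here were rarer: all 9 were at least 2-fold lower under each mix, against 8.28% of genes with mix 1 and 9.35% with mix 2. The 9 genes were chosen with earlier results of these data known. Their counts beside the shares of all genes are therefore a description, not a test of the set. For all 9 every knockdown array also lay below every control array, as it did for 31.0% of genes with mix 1 and 31.0% with mix 2. The 4 control arrays serve both comparisons, so the falls with mix 1 and mix 2 are not independent of each other. In RNA from whole cultures, fewer cells of a type (such as cells making DNA) and less RNA per cell cannot be told apart.

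**Figure D1:**
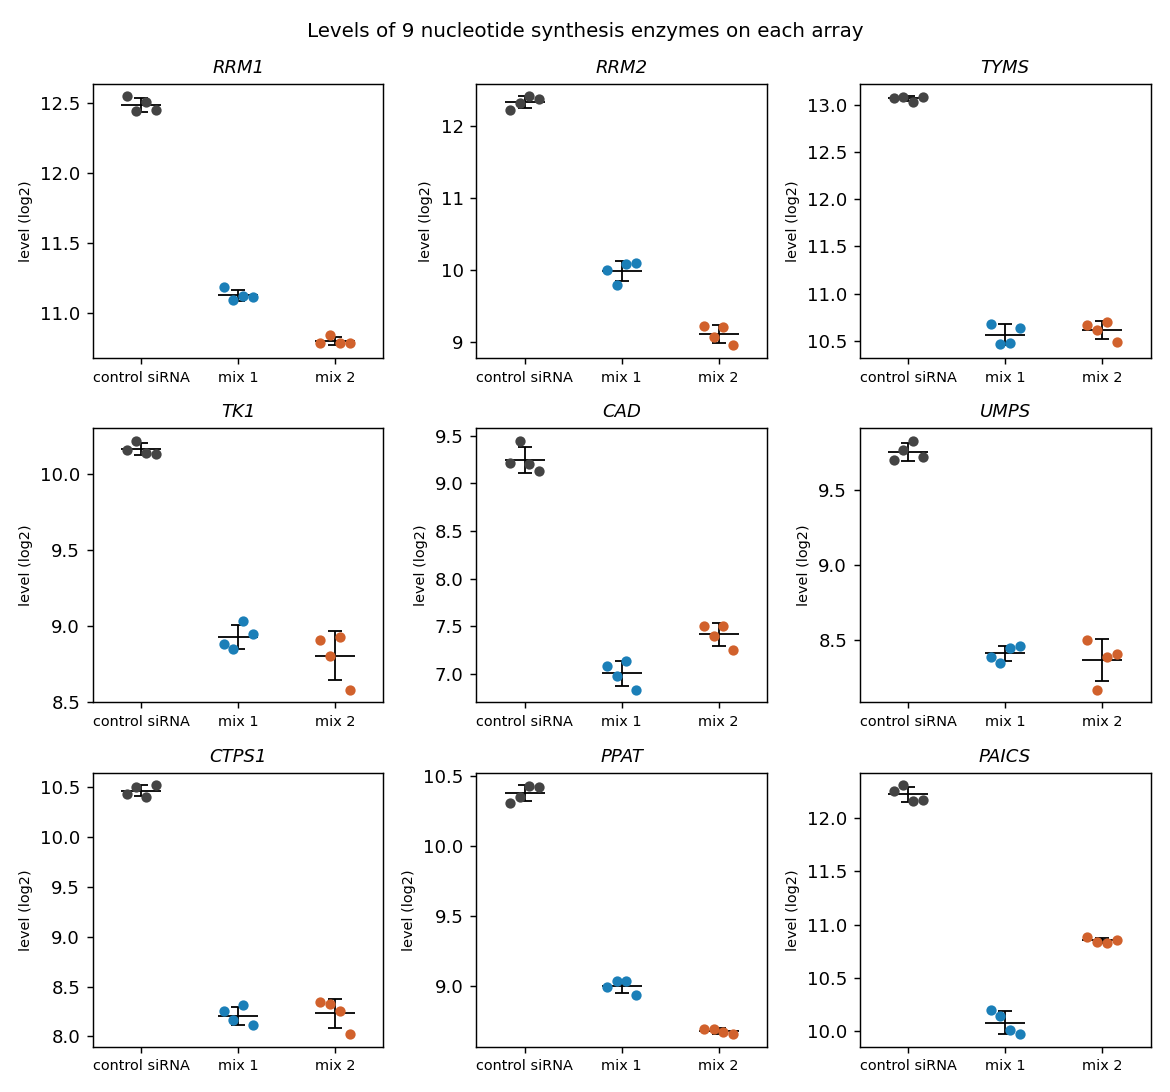
Level (log2, vertical axis, a range of its own in each panel) of the 9 enzymes on each of the 12 arrays by siRNA group; points are arrays, long dashes group means and bars 1 SD (n = 4). In every panel the control points lie above all points of both mixes, and PAICS and CAD lie higher with mix 2 than with mix 1.

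The first set of enzymes supplies deoxynucleotides. RRM1 and RRM2 encode the large subunit of ribonucleotide reductase and its small subunit of S phase, TYMS makes thymidylate from deoxyuridylate, and TK1 is the cytosolic kinase that salvages thymidine. The RefSeq sequence before the start site (GRCh38.p14) is shown for RRM2, TK1 and TYMS because these windows held the repeated CCAAT words and the only E2F word found among the 9 genes. RRM2 is chr2:10122489-10122738 (plus strand), TK1 is chr17:78187053-78187302 (minus strand) and TYMS is chr18:657403-657652 (plus strand). Each is written 5′ to 3′ on the gene's strand and ends at the base before the start; capitals mark CCAAT, its reverse complement, or the reverse complement of the E2F word.
RRM2: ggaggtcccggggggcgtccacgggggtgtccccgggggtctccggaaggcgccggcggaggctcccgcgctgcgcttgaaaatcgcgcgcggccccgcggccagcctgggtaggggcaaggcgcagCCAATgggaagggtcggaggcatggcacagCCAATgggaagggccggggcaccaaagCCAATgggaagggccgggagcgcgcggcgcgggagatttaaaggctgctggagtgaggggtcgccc
TK1: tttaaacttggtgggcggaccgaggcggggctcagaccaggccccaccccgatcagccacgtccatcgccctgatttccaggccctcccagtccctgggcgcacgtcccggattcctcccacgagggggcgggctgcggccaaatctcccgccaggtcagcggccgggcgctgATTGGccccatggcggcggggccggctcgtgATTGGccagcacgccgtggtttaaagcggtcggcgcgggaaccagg
TYMS: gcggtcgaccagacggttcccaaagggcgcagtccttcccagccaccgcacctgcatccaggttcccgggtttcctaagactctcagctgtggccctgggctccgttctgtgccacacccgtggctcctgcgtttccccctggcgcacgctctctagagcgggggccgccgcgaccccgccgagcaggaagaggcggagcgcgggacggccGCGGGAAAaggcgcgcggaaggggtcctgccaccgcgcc
The RRM2 stretch has CCAAT 3 times, beginning 123, 93 and 66 bases before the start. TK1 has it on the opposite strand 2 times, at 77 and 46 bases before the start, and TYMS has its E2F word there at 39 bases before the start. RRM2 and TK1 each have a further RefSeq start, at 10122568 and 78187204, which lies inside the printed stretch. The more downstream start of each gene was used, and the marked CCAAT words lie after the further start.

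RRM2 had the deepest fall of the 9 with mix 2 and the next deepest after TYMS with mix 1. Its levels with control siRNA were 12.22, 12.31, 12.41 and 12.37 for replicates A to D. With mix 1 they were 9.99, 9.79, 10.08 and 10.09, and with mix 2 they were 9.22, 9.06, 9.20 and 8.95. The 3 groups did not overlap, and mix 2 was the lowest. The means were 12.33 ± 0.08 (SD, n = 4), 9.99 ± 0.14 and 9.11 ± 0.13, a difference from control of -2.34 (SE 0.08, limma adjusted p = 5.592e-12) with mix 1 and of -3.22 (SE 0.08, adjusted p = 1.971e-13) with mix 2. That left 19.8% and 10.7% of the control level, and RRM2 held place 79 and place 40 among the 13225 genes ordered from the deepest fall. Mix 2 was lower than mix 1 by -0.88 (adjusted p = 4.062e-07).

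RRM2 is also the member whose probe sets parted most. The values above are from 209773_s_at, whose suffix marks probes that more than 1 transcript can share. The other, 201890_at, gave 12.72, 12.69, 12.60 and 12.63 in control, 10.31, 10.08, 10.16 and 10.29 with mix 1, and 7.14, 6.95, 6.91 and 6.77 with mix 2. With mix 1 the differences were -2.34 and -2.45, but with mix 2 the other set fell by 5.72 (adjusted p over all probe sets = 5.272e-15), to 1.90% of control. The gap between the probe sets, taken array by array, shifted by -2.50 from control to mix 2 (exact two-sided permutation p = 0.0286, the smallest that 4 against 4 arrays allow, 0.0644 after Benjamini-Hochberg adjustment over 18 such shifts). From control to mix 1 it shifted by -0.11 (exact permutation p = 0.286). The call of a fall held for either probe set; its size with mix 2 depended on which was read.

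RRM1, the partner subunit, fell less. Its levels were 12.55, 12.44, 12.51 and 12.45 in control, 11.18, 11.09, 11.12 and 11.11 with mix 1, and 10.78, 10.84, 10.78 and 10.78 with mix 2. Replicates were tight and the groups did not overlap. The means of 12.49 ± 0.05, 11.13 ± 0.04 and 10.80 ± 0.03 (SD, n = 4 each) gave differences of -1.36 (SE 0.05, limma adjusted p = 9.65e-12) and -1.69 (SE 0.05, adjusted p = 8.027e-13), and 38.9% and 30.9% of the control level remained. Mix 2 was lower than mix 1 by -0.33 (adjusted p = 5.79e-05). This difference between the mixes rested on the brighter probe set: the other, 201476_s_at, fell (-1.52 and -1.51 with mix 1 and mix 2) and differed between the mixes by 0.01 (adjusted p = 0.952), and with the mean of both sets the difference was -0.16 (adjusted p = 0.108). Both RRM1 probe sets end in _s_at, so the RRM1 fall rests on probe sets of the shared kind.

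TYMS, the target of fluoropyrimidine drugs, fell deeply with either mix. Control arrays read 13.08, 13.09, 13.04 and 13.09. Mix 1 arrays read 10.68, 10.46, 10.47 and 10.63, and mix 2 arrays read 10.67, 10.61, 10.70 and 10.48. The knockdown groups overlapped each other and lay well below the controls. Group means were 13.08 ± 0.02, 10.56 ± 0.11 and 10.62 ± 0.10 (SD, n = 4 each), with differences of -2.52 (SE 0.07, limma adjusted p = 4.064e-13) and -2.46 (SE 0.07, adjusted p = 3.48e-13), or 17.5% and 18.2% of control. The mixes differed by 0.06 (SE 0.07, adjusted p = 0.517). A further probe set, 1554696_s_at, fell (-2.83 and -2.82), and a dim one below the filter had differences of -0.52 and -0.42 between means near 4 log2.

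By its brightest probe set, TK1 had the smallest fall of the 9 with mix 1, and with mix 2 its difference (-1.36) was next to that of PAICS (-1.37). It read 10.16, 10.22, 10.14 and 10.13 in control, 8.88, 8.85, 9.03 and 8.95 with mix 1, and 8.91, 8.80, 8.93 and 8.58 with mix 2. Mix 2 replicate D was the lowest array, and the mixes overlapped. The means of 10.16 ± 0.04, 8.93 ± 0.08 and 8.81 ± 0.16 (SD, n = 4 each) differed from control by -1.24 (SE 0.08, limma adjusted p = 1.792e-09) and -1.36 (SE 0.08, adjusted p = 5.372e-10), leaving 42.5% and 39.0%. The difference between mixes was -0.12 (SE 0.08, adjusted p = 0.189). On the other TK1 probe set, 202338_at, the differences were -1.30 and -1.50, and there mix 2 was lower than mix 1 by -0.20 (adjusted p = 0.0305).

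Next come the enzymes of the pyrimidine route: CAD carries out its opening steps, UMPS turns orotate into uridine monophosphate, and CTPS1 makes CTP from UTP. CAD read 9.21, 9.45, 9.20 and 9.13 in control, 7.08, 6.98, 7.13 and 6.83 with mix 1, and 7.50, 7.40, 7.50 and 7.25 with mix 2. No groups overlapped, and mix 1 was the lowest. CAD fell from 9.25 ± 0.14 to 7.01 ± 0.13 and 7.41 ± 0.12 (SD, n = 4 each), with differences of -2.24 (SE 0.09, limma adjusted p = 1.542e-11) and -1.84 (SE 0.09, adjusted p = 9.669e-11). This left 21.1% and 28.0% of control, and the level with mix 2 was 1.33-fold that with mix 1 (0.41, adjusted p = 0.00107). A dim CAD probe set below the filter differed by -0.32 and -0.27, with overlapping groups.

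CTPS1 had a single probe set and close falls under the mixes. It read 10.43, 10.50, 10.40 and 10.52 in control, 8.25, 8.16, 8.31 and 8.11 with mix 1, and 8.34, 8.32, 8.25 and 8.02 with mix 2. The knockdown groups overlapped, and both lay more than 4-fold below the controls. Means of 10.46 ± 0.06, 8.21 ± 0.09 and 8.23 ± 0.15 (SD, n = 4 each) gave -2.26 (SE 0.07, limma adjusted p = 3.512e-12) and -2.23 (SE 0.07, adjusted p = 2.488e-12), or 20.9% and 21.3% of control. The mixes differed by 0.03 (SE 0.07, adjusted p = 0.805). Its relative CTPS2, which makes the same product, was higher by 0.50 (adjusted p = 5.434e-05) and 0.81 (adjusted p = 3.655e-07), although with the mean of its probe sets the mix 1 difference was -0.11 (adjusted p = 0.136).

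UMPS fell with both mixes. Its values were 9.70, 9.77, 9.83 and 9.72 in control, 8.39, 8.35, 8.45 and 8.46 with mix 1, and 8.50, 8.17, 8.39 and 8.41 with mix 2. The spread was widest with mix 2, where replicate B was the lowest array. From 9.76 ± 0.06 the level went to 8.41 ± 0.05 and 8.37 ± 0.14 (SD, n = 4 each), a difference of -1.34 (SE 0.07, limma adjusted p = 2.81e-10) and -1.39 (SE 0.07, adjusted p = 1.663e-10), with 39.4% and 38.2% left. The mixes differed by -0.05 (adjusted p = 0.617). The probe set 202706_s_at fell (-1.22 and -1.27), but a dim one, 239800_at, with a mean of 5.65, differed by 0.08 with mix 1 (adjusted p = 0.486) and by -0.29 with mix 2 (adjusted p = 0.0139). The UMPS fall with mix 1 therefore rests on probe sets of the shared kinds (_s_at and _x_at).

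PPAT and PAICS act early and midway in the purine route: PPAT makes its committed step, and PAICS adds a carboxyl group and then aspartate to the growing ring. The genes lie head to head on chromosome 4. PAICS has several RefSeq starts, and those at 56410507 and 56436260 do not border the stretch shown here. The stretch lies between the PPAT start and the nearest PAICS start to its right (GRCh38.p14, plus strand, chr4:56435616-56435751, 136 bases). It is shown because these starts lie at its ends. PPAT runs leftward from the base before it and PAICS rightward from the base after it, and none of the words searched was found between them, so that no letter is in capitals.
PPAT-PAICS: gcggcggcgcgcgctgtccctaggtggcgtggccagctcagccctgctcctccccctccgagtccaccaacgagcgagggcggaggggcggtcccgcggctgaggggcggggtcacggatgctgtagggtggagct

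Among the 9, PAICS kept the most of its level with mix 2 relative to mix 1. It read 12.25, 12.31, 12.16 and 12.17 in control, 10.20, 10.14, 10.01 and 9.97 with mix 1, and 10.88, 10.84, 10.83 and 10.86 with mix 2. No groups overlapped, and the mix 2 arrays lay between the other groups. The fall was from 12.22 ± 0.07 to 10.08 ± 0.11 with mix 1 (-2.14, SE 0.06, limma adjusted p = 9.662e-13, 22.6% left) and to 10.85 ± 0.02 with mix 2 (-1.37, SE 0.06, adjusted p = 5.931e-11, 38.7% left). The level with mix 2 was 1.71-fold that with mix 1 (0.77, adjusted p = 9.469e-08). The probe set 201014_s_at also differed in that direction, by 0.46 (adjusted p = 6.13e-05), with differences from control of -1.98 and -1.52. The only PAICS probe set of no shared kind, 214664_at, was below the filter. It changed by -1.69 and -1.71 and differed by -0.02 between the mixes (limma adjusted p without the filter = 0.944). The difference between mixes therefore rests on probe sets of the shared kinds.

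PPAT went the other way between the mixes. It read 10.31, 10.35, 10.43 and 10.42 in control, 8.99, 9.03, 9.03 and 8.93 with mix 1, and 8.69, 8.69, 8.67 and 8.65 with mix 2. The groups did not overlap, and mix 2 was the lowest. Means of 10.38 ± 0.06, 8.995 ± 0.05 and 8.68 ± 0.02 (SD, n = 4 each) gave -1.38 (SE 0.05, limma adjusted p = 9.864e-12, 38.4% left) and -1.70 (SE 0.05, adjusted p = 8.915e-13, 30.7% left). Mix 2 was lower than mix 1 by -0.32 (adjusted p = 8.993e-05), and 209434_s_at differed by -0.30 (adjusted p = 0.00543). The only PPAT probe set of no shared kind, 235833_at, was dim (mean 5.88), fell by 0.32 with mix 1 (adjusted p = 0.00293), and differed by -0.17 with mix 2 (adjusted p = 0.0834) and by 0.15 between the mixes.

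**Figure D2:**
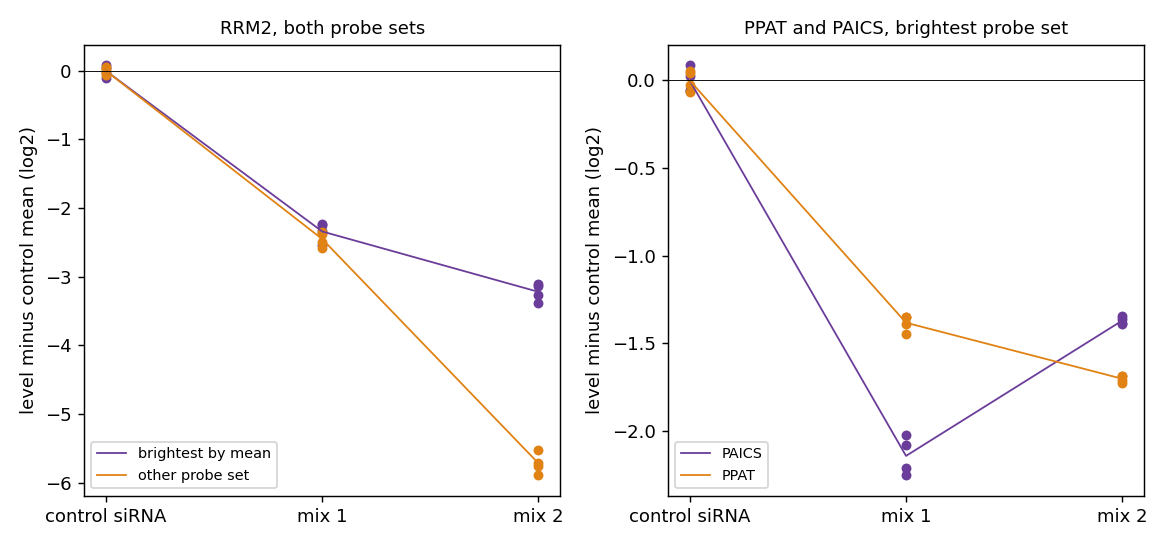
Level minus the control mean (log2) in each siRNA group, for the RRM2 probe sets (left) and for PPAT and PAICS (right); points are arrays (n = 4 per group) and lines join group means. The RRM2 probe sets part only with mix 2, where the differences from control are -3.22 and -5.72, and the PPAT and PAICS lines cross between mix 1 and mix 2.

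Set directly against each other, the mixes differed for 5 of the 9 enzymes. With mix 2, RRM2, RRM1 and PPAT were lower (3 of 9, against 25.0% of all genes), and PAICS and CAD were higher (2 of 9, against 28.7%). These shares are near those of all genes. TYMS, CTPS1, UMPS and TK1 did not pass the test between mixes, with differences from -0.12 to 0.06. The median over the 9 was -0.05, and over all genes it was 0.03.

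Counted by probe set, 17 of the 18 tested were lower with mix 1 (all probe sets 31.7%) and 17 of 18 with mix 2 (32.2%). The exceptions were 239800_at of UMPS with mix 1 and 235833_at of PPAT with mix 2. Between the mixes 7 of 18 were lower with mix 2 (25.6%). Of the tested probe sets not ending in _s_at or _x_at, which cover 7 of the genes, 7 of 8 were lower with each mix. The share of all probe sets with such endings is not given here. The 4 probe sets below the filter read CAD, TYMS, UMPS and PAICS. The PAICS one, 214664_at, went from 5.67 in control to 3.99 and 3.97. The UMPS one, 202707_at, differed from control by -0.13 and -0.08, with overlapping groups.

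**Figure D3:**
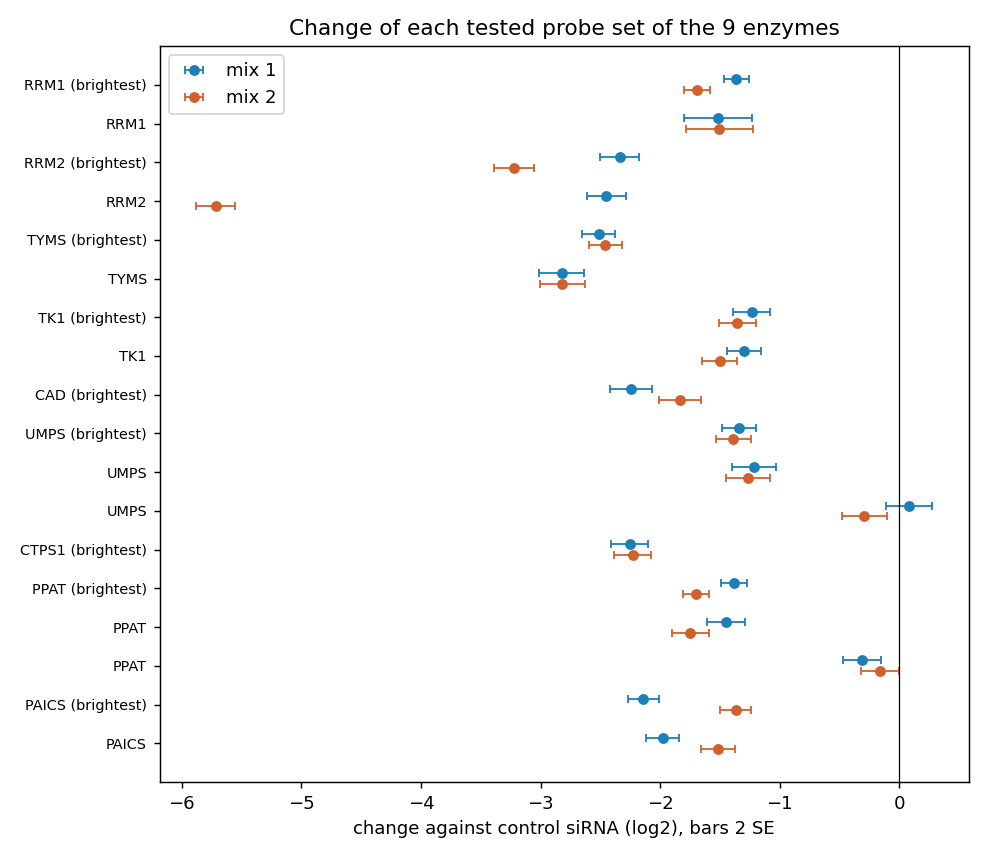
Change against control siRNA (log2, horizontal axis) of each of the 18 tested probe sets of the 9 enzymes with mix 1 and mix 2; points are limma estimates (n = 4 arrays per group) and bars 2 SE. Most probe sets of a gene lie close together, apart from RRM2 with mix 2 and the dim UMPS and PPAT sets near 0.

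Ordered by size, the mix 1 falls formed a deep and a shallow group. TYMS, RRM2, CTPS1, CAD and PAICS had differences from -2.52 to -2.14, and PPAT, RRM1, UMPS and TK1 from -1.38 to -1.24. The step from PPAT to PAICS was -0.76, with an exact permutation p of 0.0286 over arrays (0.0915 adjusted over 16 neighbour steps). The step from TK1 to UMPS was -0.11 with the same p, and the other neighbours had exact permutation p from 0.1143 to 0.8286. With mix 2 RRM2 stood below TYMS (-0.76), TYMS below CTPS1 (-0.23) and CTPS1 below CAD (-0.40) (exact permutation p = 0.0286 each, 0.0915 adjusted). From CAD down to TK1 the steps between neighbours had exact permutation p from 0.0571 (UMPS to RRM1, -0.31) to 1. None of the 16 steps passed after adjustment, but this cannot decide whether they differ. An exact p of 0.0286 is the smallest that this number of arrays allows. With so few steps at that floor, their adjusted value was 0.0915, however large and tight the step. The neighbours were also found by sorting the same changes that were then tested. The order is therefore a description, and no conclusion is drawn from the adjusted values.

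By likeness of profile over the 12 arrays, RRM1 and PPAT were each other's nearest gene among all 13225. Likeness was the root-mean-square difference after each gene's control mean was subtracted, a description without a test over arrays that share their controls. It was 0.0586 log2 for RRM1 and PPAT, and DTYMK, the thymidylate kinase, came next to both (0.0724 from RRM1 and 0.0711 from PPAT), followed by NCAPG2 (0.0834 and 0.0767). TK1 and UMPS were the next closest members (0.126), while RRM1 and RRM2, subunits of 1 enzyme, differed by 1.05, and PPAT and PAICS by 0.486. These distances used the brightest probe set of each gene alone. With mix 1 and mix 2, the other RRM1 set changed by -1.52 and -1.51, and the other RRM2 set by -2.45 and -5.72.

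The nearest genes of the other members were of several kinds. RRM2 lay nearest to CDC20, an activator of the anaphase-promoting complex (0.127), GNB4 (0.176) and the mitotic kinase gene AURKB (0.179). TYMS lay nearest to CLMP (0.116) and to RFC3 and POLE2, which encode parts of the replication clamp loader and of a DNA polymerase (0.117 and 0.150). CAD was nearest to WDR4 (0.123), FIRRM and AP1M2. CTPS1 was nearest to ZNF239 (0.0837), NOP16 and SLC7A2, and PAICS to GPR137C (0.0934), SAC3D1 and SNAI2. TK1 was nearest to UTP14A (0.0597), CSTF2 and TIMM9, and UMPS to HAUS7 (0.0841), PGM2 and TIMM9.

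The rest of nucleotide metabolism changed in both directions. Of 58 further genes listed by role, 53 had a usable probe set and 48 were tested. With mix 1, 25 fell, 10 rose and 13 did not pass, with a median of -0.37; with mix 2, 27 fell, 11 rose and 10 did not pass, with a median of -0.43. The shares lower, 52.1% and 56.3%, stand beside the 32.3% and 31.9% of all genes given above.

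**Figure D4:**
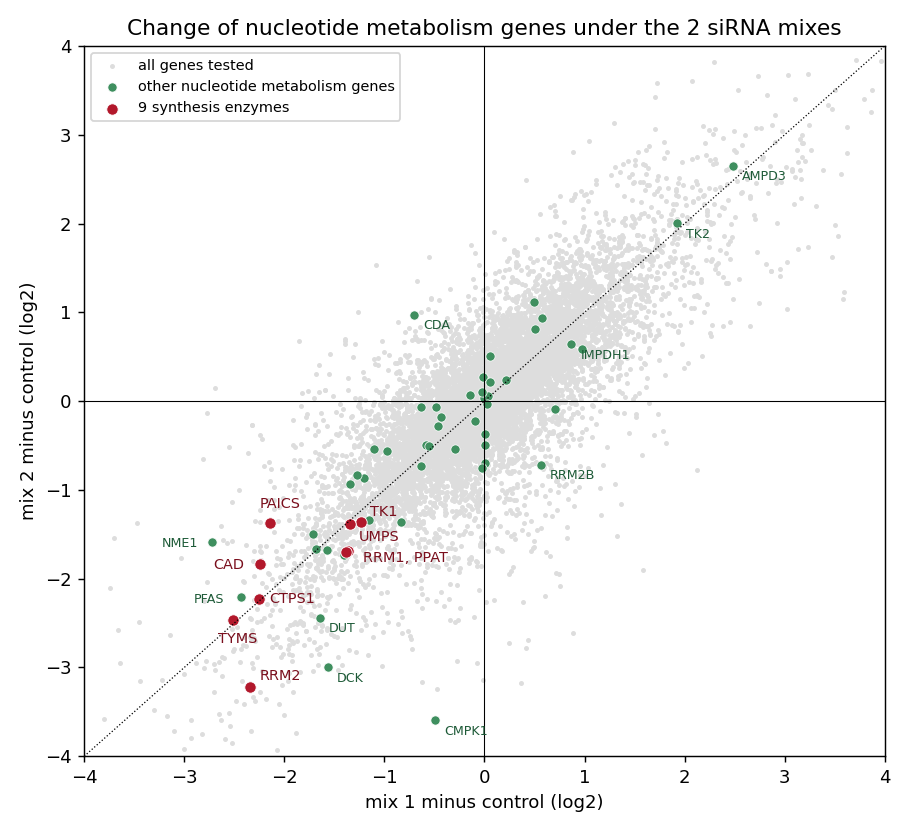
Log2 difference from control with mix 1 (horizontal) and mix 2 (vertical); red points are the 9 enzymes, green points the 48 other nucleotide genes tested, grey points all genes tested within the axes, and the dotted line marks equal change. The red points all lie at the lower left, whereas green points such as AMPD3 and TK2 lie in the upper right.

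Most of the remaining purine de novo genes fell. Of 10 tested, 8 fell and 1 rose with mix 1 (median -1.16), and 9 fell and 1 rose with mix 2 (median -0.85). PFAS, which acts between PPAT and PAICS, fell (-2.43, limma adjusted p = 2.779e-11, and -2.21), and PRPS2, which makes the activated ribose phosphate, fell (-1.69 and -1.67). At least 2-fold falls numbered 6 with mix 1 and 3 with mix 2. IMPDH1, an isoenzyme on the branch to guanine nucleotides, rose by 0.87 and 0.64, and ADSS1, named after its value was seen, did not pass with mix 1 (-0.09, limma adjusted p = 0.362).

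Of 3 further pyrimidine genes, DHODH, the mitochondrial step between CAD and UMPS, fell (-1.58 and -1.68). CMPK1, which phosphorylates UMP and CMP, differed widely between the mixes: it went from 12.03 ± 0.04 in control to 11.53 ± 0.13 with mix 1 (-0.50, limma adjusted p = 8.772e-06) and 8.43 ± 0.06 with mix 2 (-3.59, adjusted p = 1.863e-14). The mixes differed by -3.10 (adjusted p = 8.249e-13). CTPS2, given above, was the third.

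Among 7 other tested genes of deoxynucleotide supply, 4 fell and 2 rose with mix 1, and 6 fell and 1 rose with mix 2. NME1, a nucleoside diphosphate kinase, fell (-2.72 and -1.59), as did DUT, which removes dUTP (-1.65 and -2.44). GUK1, a guanylate kinase, rose by 0.22 (limma adjusted p = 0.0154) and 0.24 (adjusted p = 0.00849), calls that were lost with the mean of its probe sets (adjusted p = 0.525 and 0.0784). With each array centred on its median, the mix 1 call was lost too (adjusted p = 0.0515), as it was without control replicate D (adjusted p = 0.0516). RRM2B, the small reductase subunit that p53 induces, is named after its values were seen: it was at 8.73, 8.47, 8.43 and 8.64 in control, 9.37, 9.36, 8.61 and 9.18 with mix 1, and 7.75, 7.71, 7.81 and 8.14 with mix 2. It rose by 0.56 (adjusted p = 0.0038) with mix 1, though replicate C lay within the control range, and fell by 0.72 (adjusted p = 0.000585) with mix 2, where no array reached the controls.

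Salvage and breakdown genes changed in both directions. Of 9 salvage genes, 5 fell and 2 rose with mix 1, and 4 fell and 2 rose with mix 2. DCK, the deoxycytidine kinase, fell (-1.56 and -3.0), as did HPRT1, which salvages hypoxanthine and guanine (-0.98 and -0.57). TK2, the mitochondrial thymidine kinase, rose by 1.92 (limma adjusted p = 8.006e-13) and 2.01, opposite to TK1, and UPRT rose by 0.50 and 1.12. Of 17 breakdown genes, 6 fell and 4 rose with mix 1 (median -0.02), and 5 fell and 6 rose with mix 2 (median 0.05), shares lower of 35.3% and 29.4%, near those of all genes. AMPD3, an AMP deaminase, rose by 2.48 and 2.65 and AMPD2 by 0.97 and 0.59, whereas PNP (-1.16 and -1.34) and ADA (-0.59 and -0.49), which act on purine nucleosides, fell. Of 2 nucleoside transporters tested, neither passed with mix 1, and SLC29A1, named after its value was seen, fell by 0.37 with mix 2.

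Several values moved beside these falls, and their part in them was not tested. All 8 proliferation markers were lower with both mixes, with medians of -1.75 and -2.46, among them MKI67 (-2.66 and -2.94), MCM2 (-2.48 and -3.38) and PCNA (-1.56 and -1.37). Of 9 tested reference genes, 3 were higher and 2 lower with mix 1 (median 0.02), and 2 were higher and 2 lower with mix 2 (median 0.03). The 3′ minus 5′ control signal of ACTB, a sign of RNA quality, was 1.38 to 1.99 in control, 1.61 to 2.24 with mix 1 and 1.36 to 1.83 with mix 2 (exact permutation p = 0.314 and 0.343 against control). For GAPDH it was 0.34 to 0.45, 0.33 to 0.51 and 0.33 to 0.42 (exact permutation p = 0.4286 and 0.8286).

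Markers of other cell types were dim in part, and some rose with both mixes; their part in the falls was not tested. Of 5 fibroblast markers 2 were above the filter, and the summed level of the list was 7.89 to 8.27 in control, 9.51 to 9.93 with mix 1 and 9.16 to 9.31 with mix 2; COL1A1 (2.30 and 1.48) and PDGFRB (0.66 and 0.88) rose with mix 1 and mix 2, and COL1A2, DCN and LUM were below the filter. The means of LUM were 3.19 in control, 4.26 with mix 1 and 5.41 with mix 2. In the same order those of COL1A2 were 4.77, 4.47 and 4.79, and those of DCN 5.47, 5.38 and 5.53. Of 4 endothelial markers 2 were above it (7.43 to 7.74, 8.83 to 9.03 and 8.31 to 8.49), of which PECAM1 rose (2.08 and 1.34), and CDH5 was at 3.97 in control. Of 5 leukocyte markers 3 were above it (7.36 to 7.64, 7.63 to 7.82 and 7.70 to 7.90), of which CD14 rose (1.12 and 1.24), and PTPRC was at 4.04 in control.

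The 9 genes had 14 RefSeq start windows (250 bases before to 50 after the start), and few shared a motif. CCAAT was in 5 of the 14, from 4 genes (RRM2, TK1, RRM1 and CAD), and in 34.6% of all 35116 windows. The E2F words TTTCCCGC, TTTGGCGC, TTTCGCGC and TTTGCCGC were found in the TYMS window alone, and in 3.31% of all windows. CACGTG, the E-box, was in 1 window of PPAT and 1 of PAICS (7.26% of all windows); it is 1 and the same word, which lies 41 bases into PAICS and 182 bases before PPAT. TTTGAA was found for UMPS and RRM1 (15.2%). GGAATG, the TEAD word (14.03% of all windows), was in the CTPS1 window of the start at 40988519. It was not in that of the more upstream CTPS1 start at 40979696. Both strands were searched; a match is a description of letters, and no binding was measured.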

How the data were processed

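The values were log2 levels from Affymetrix Human Genome U133 Plus 2.0 arrays, in 1 deposited table. Per the submitters' processing notes they came from RMA; which software and settings is not given in the sources used here. RMA in its usual form gives all arrays 1 distribution, so a shift of all genes would not be visible. Probe sets with exactly 1 gene symbol were used (41091 of 54675, without the 62 control probe sets), with symbols updated by gene ID through RefSeq (GRCh38.p14) for 41037 of them. After the filter on mean level, 24650 probe sets and 13225 genes were tested with limma 3.58.1 in R 4.3.3: 3 group means over 12 arrays (9 residual degrees of freedom), eBayes, two-sided p-values, Benjamini-Hochberg adjustment over all features, threshold 0.05. The script was tested on simulated data. Likeness, motif and exact permutation steps used Python 3.11.15 with scipy 1.17.1.

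Members and lists were chosen with earlier results of these data known. Named besides the members were YAP1, WWTR1, up to 2 genes per direction and role that passed under both mixes, and the 3 genes most like each member; other names, and the tests of gaps between probe sets and between neighbours in the order of falls, were chosen after values were seen. The array number limits the precision. Same-letter replicates of control and mix 1 correlated in their deviations (0.370, 0.251, 0.409 and 0.340 for A to D), and those involving mix 2 did so at -0.09 to 0.27. Another letter matched better for control A with mix 1, for control A, B and C with mix 2, and for mix 1 B and C with mix 2. Pairing by letter comes from these values and from parallel handling, and a fit with the letters as a block was an alternative. The others were the filter (none, or the 60th percentile), a mean over the probe sets of each gene, no probe sets ending in _s_at or _x_at, arrays centred on their medians, a fit of the 2 groups compared alone, and each array left out. Sequences came from RefSeq's promoter table, which matched all 9 members; no genome or protein sequence was used here.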

Additional observations from a re-analysis of the deposited data

Results flagged for a closer look

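In RRM1, the mix 2 array of replicate B read 10.84 while the other 3 arrays of the group all read 10.78, a small gap that spans the whole range of a tight group; 27 groups of 4 arrays were looked at, and chance gives about 1 in 20 such gaps. RRM2B and CDA changed in opposite directions under the mixes, and the difference between mixes passed the test for each. For RRM2B, mix 2 minus mix 1 was -1.28 (limma adjusted p = 4.567e-06). CDA, the cytidine deaminase, fell by 0.70 with mix 1 (limma adjusted p = 1.999e-05) and rose by 0.97 with mix 2 (adjusted p = 6.312e-07), from mean levels of 7.39 in control to 6.69 and 8.36, and mix 2 minus mix 1 was 1.67 (adjusted p = 5.212e-09).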

How the results depend on the processing

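All 9 members stayed lower with both mixes under every alternative that kept all 9, and single-array omissions changed no member's call. Without probe sets ending in _s_at or _x_at, 7 members were left and 6 were lower with each mix: UMPS differed by 0.08 with mix 1 (adjusted p = 0.485) and PPAT by -0.17 with mix 2 (adjusted p = 0.0799). The count of member probe sets lower was then 7 with mix 1, 7 with mix 2 and 3 between mixes, 1 member was higher with mix 2 than mix 1, and PPAT between mixes was 0.15 (adjusted p = 0.128). UMPS became lower with mix 2 than mix 1 there (-0.37, adjusted p = 0.00363) and with the mean of probe sets (-0.16, adjusted p = 0.0222). Without the shared kinds the median difference of the members was -2.24 with mix 1, -1.84 with mix 2 and 0.025 between mixes. With the mean of probe sets this median was -2.06 for mix 1, and leaving out single arrays it ran from -2.18 to -2.11. That mean also turned CTPS2 with mix 1 to -0.11 (adjusted p = 0.136). With the replicate block all counts of members were as before (9, 9, and 3 lower with 2 higher), and genes called were 9194, 9380 and 7570 against 8878, 9070 and 7096 without it; among the members, the nucleotide genes named by role, RRM2B and CDA, the calls run with it changed only for PFAS between mixes (0.22, adjusted p = 0.0486). Of 178 repeats per comparison, 177, 177 and 174 kept the members' side of the threshold, and their direction where the main fit had passed. Where it had not passed between mixes, a change of sign was not counted: CTPS1 ran from -0.01 to 0.10 and UMPS from -0.37 to 0.02. Dim probe sets near the filter limit what can be read for UMPS and PPAT.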
